A study of Mus musculus with 16 samples.

Results

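The Tdpoz and Usp17l genes are tandemly repeated mouse gene families whose RNA is known from the time when the embryo first transcribes its own genome. They were followed here through the 9 members Tdpoz1, Tdpoz2, Tdpoz3, Tdpoz4, Usp17la, Usp17lb, Usp17lc, Usp17ld and Usp17le. A row of the array table was taken as a member row where its gene symbol was, or included, 1 of these names. This gave 10 rows, 5 for Tdpoz and 5 for Usp17l, of the 32814 rows that carry a symbol and of 72688 rows in all. Each member had a row of its own, and the tenth row carried Tdpoz2 together with Gm5773. Another 5 rows of the families (Tdpoz8, Tdpoz9 in 2 rows, and 2 rows that carry Tdpoz7 and Tdpoz5 together) are given beside the members where they bear on them. The 2 rows of Tdpoz7 and Tdpoz5 held identical values on all 16 arrays.

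The series measured RNA on 16 whole-transcript arrays, 1 per stage and hormone background. The 8 stages were the unfertilized MII oocyte, the 1-cell embryo, the early and the late 2-cell embryo, the 4-cell embryo, the 8-cell embryo, the morula and the blastocyst, and the backgrounds were superovulated and natural-cycle. In the superovulated group, B6C3F1 females aged 6 to 8 weeks received 10 IU PMSG and then 10 IU hCG 48 h later, and 4 runs gave 3096 oocytes and embryos. The natural-cycle group came from unstimulated B6C3F1 females, where 9 runs gave 989. Fertilization was by CD1 males on both backgrounds, zygotes were cultured in KSOM(aa), lysates were pooled by stage, and each array received the equivalent of 20 oocytes or embryos. Superovulated MII oocytes came from unmated females and natural-cycle MII oocytes from females mated with vasectomized males, so mating and stimulation cannot be told apart at that stage. Every group is 1 array of pooled material. The tests below therefore set stage and background differences against a spread taken from how far the 2 backgrounds depart from a common stage course.

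At fertilization the embryo lives on RNA stored by the oocyte. Its own genome is switched on weakly in the zygote and strongly at the 2-cell stage, when a wave of genes, many of them young duplicated families, is transcribed for a short time. Tdpoz proteins resemble SPOP, an adaptor that holds a substrate with its MATH domain and the cullin-3 ubiquitin ligase with its BTB/POZ domain. Usp17l proteins belong to the ubiquitin-specific proteases, which take ubiquitin off proteins, and were first described in mouse blood cells after cytokine stimulation. By this likeness to SPOP, Tdpoz proteins would stand on the opposite side of ubiquitin chemistry from the proteases, which was not tested here.

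The promoter sequences show which copies are alike. RefSeq windows of assembly GRCm38.p6 were at hand for 6 of the 9 members and for 4 relatives, and the 250 bases before the annotated start were searched in each. The stretches below were chosen because they carry the TATA-like element that the Usp17l copies share, apart from 1 copy, and the one that Tdpoz1 shares with Tdpoz9. Each reads 5′ to 3′ on the strand of its gene. Capitals in the Usp17l stretches mark the CCAAT box, which reads reversed and complemented there, and the TATAAA element. Capitals in the Tdpoz stretches mark their own variant of that element, TATATA.

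Usp17ld (chr7:103252602-103252663, minus strand): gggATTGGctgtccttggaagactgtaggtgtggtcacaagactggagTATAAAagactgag
Usp17lc (chr7:103416560-103416621, plus strand): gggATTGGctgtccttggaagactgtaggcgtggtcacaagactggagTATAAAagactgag
Usp17lb (chr7:104842601-104842662, minus strand): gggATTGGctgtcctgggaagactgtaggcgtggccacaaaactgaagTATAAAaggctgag
Usp17la (chr7:104856922-104856983, plus strand): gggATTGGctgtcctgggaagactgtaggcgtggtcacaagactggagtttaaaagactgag
Tdpoz1 (chr3:93676326-93676385, minus strand): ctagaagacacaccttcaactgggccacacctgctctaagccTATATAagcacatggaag
Tdpoz9 (chr3:94054901-94054960, minus strand): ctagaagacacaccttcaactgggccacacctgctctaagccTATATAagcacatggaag

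Counted from the first base shown, the Usp17lc stretch differed from that of Usp17ld at 1 of 62 bases (C30T), from that of Usp17la at 2 (T16G and A50T) and from that of Usp17lb at 5. The A50T difference lies inside the element TATAAA, which the Usp17la window did not hold at any place. The element began 31 bases before the annotated start in Usp17lb, 88 in Usp17lc and 110 in Usp17ld. The annotated start of Usp17ld is itself an ATG, so its window may lie upstream of the coding sequence rather than of a mapped RNA start. The same holds for Tdpoz4, Tdpoz5, Tdpoz7 and the Tdpoz8 window that is compared with Tdpoz4 below. CCAAT, read on either strand, was present in all 4 Usp17l windows. Over the whole aligned windows, pairs of Usp17l copies were identical at 92.1% to 97.3% of bases. The Tdpoz1 and Tdpoz9 windows were identical at 222 of 222 aligned bases. Both, like 1 of the Tdpoz8 windows (89.4% identical to Tdpoz1), held TATATA, which reads the same on either strand. These windows also held GGATTA, a core site of Otx-like homeodomain factors, on the strand opposite to the gene. The windows of Tdpoz1 and Tdpoz4, the 2 Tdpoz members with a window, could be aligned over 9 bases only. The Tdpoz4 window ends at an ATG and the Tdpoz1 window does not, so this cannot show whether their promoters are alike. The 2 windows of Tdpoz8 differ in the same way, and were identical at 66.0% of 94 aligned bases. Tdpoz4 was identical to the Tdpoz8 window that ends at an ATG at 96.3% of aligned bases. It was identical to Tdpoz7 at 74.1% and to Tdpoz5 at 73.7%. Of all 32851 windows of this length, 12.4% held TATAAA and 5.25% held the variant of the Tdpoz stretches, on either strand. Counted likewise, 33.8% of windows held CCAAT and 6.25% held the homeodomain core. The double homeodomain sites of mouse Dux and of human DUX4 were searched as well, were in 0.0304% and 0.956% of windows, and had no match in the 6 member windows. No transcript or probe sequences were compared, and how much of a row's signal comes from its own gene rather than from a related copy was not tested.

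Before the early 2-cell stage the member rows were dim. As a yardstick, the level of silent genes was set on each array at the 95th percentile of 1385 rows of olfactory and vomeronasal receptor genes, which lay between log2 4.72 and 5.29. In MII oocytes the 5 Tdpoz rows lay at log2 2.98 to 4.59 in the superovulated sample and at 2.94 to 4.88 in the natural-cycle sample, all below that level. The Usp17l rows lay at 4.61 to 6.73 in superovulated and at 4.59 to 6.09 in natural-cycle MII oocytes, and of them Usp17lc and Usp17le were above it on both arrays. None of the 10 rows was called at the 1-cell stage over MII oocytes (limma, adjusted p below 0.05), where 0.226% of all rows were called in either direction and 1 member row had an unadjusted p below 0.05, the Tdpoz2 and Gm5773 row (0.84 ± 0.32 log2, adjusted p = 0.657). The count was also 0 in plain analysis of variance and in the 9 other settings tried.

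All 10 rows rose at the early 2-cell stage. They were called higher over the 1-cell stage, as were 11.8% of all rows, with a median member change of 7.90 log2 (7.69 with the 6 rows that were below the level of silent genes set at their bound) against 0.00 over all rows, and the 5 other rows of the families rose too. All 10 were also higher than in MII oocytes, where 13.6% of all rows were called higher. Both counts stayed at 10 with each of 16 arrays left out in turn. Values here are relative to the other rows of an array. A change in total RNA of an embryo would not show, and in pooled embryos more RNA in each cell cannot be told apart from more cells that hold it.

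**Figure D1:**
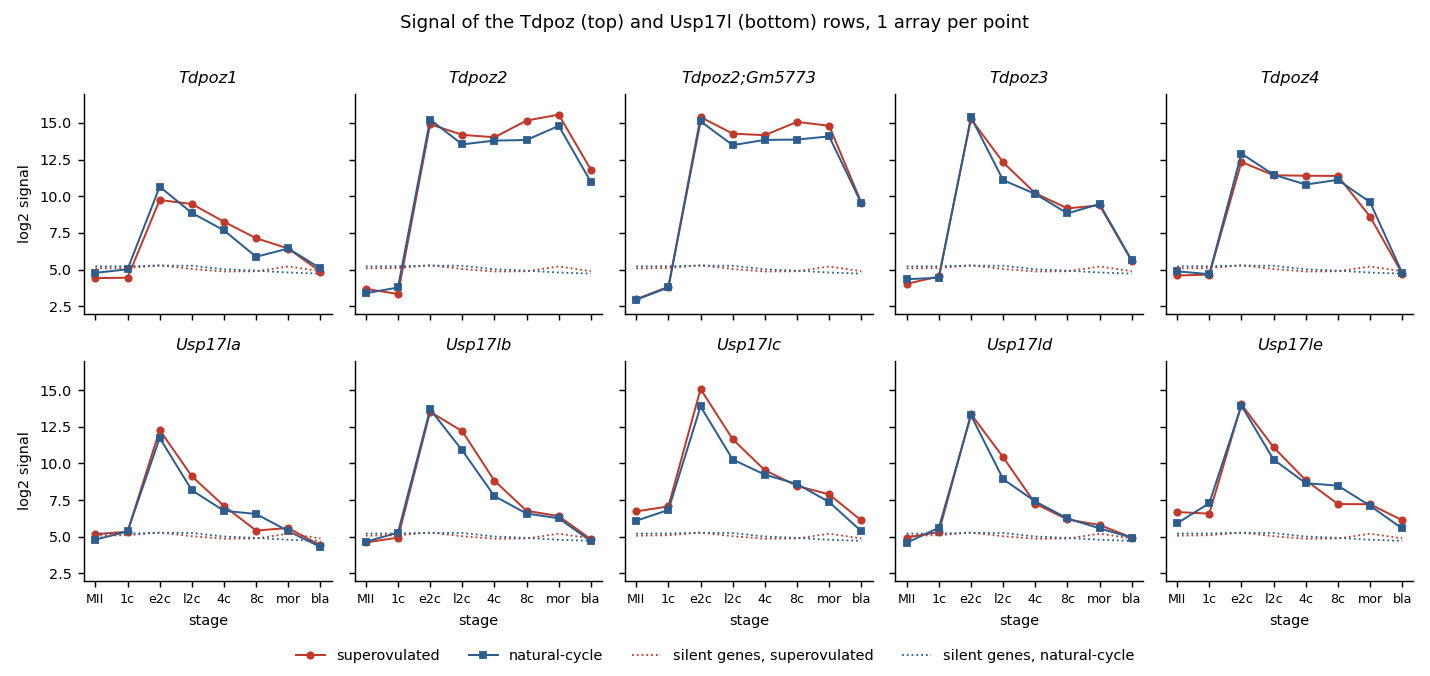
Log2 signal (y axis) of the 10 member rows at 8 stages (x axis: MII oocyte, 1-cell, early and late 2-cell, 4-cell, 8-cell, morula, blastocyst), superovulated in red and natural-cycle in blue, 1 array per point. Dotted lines are the level of silent genes on the same arrays, which lay between 4.72 and 5.29. All rows peak at or after the early 2-cell stage, and only the Tdpoz2 rows stay above 9.5 in blastocysts on both backgrounds.

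Tdpoz2 rose steeply and stayed high into the morula. From MII oocyte to blastocyst its row read 3.68, 3.33, 14.90, 14.18, 14.02, 15.16, 15.56 and 11.81 in superovulated samples, and 3.38, 3.77, 15.22, 13.53, 13.79, 13.83, 14.79 and 10.97 in natural-cycle samples. It was below the level of silent genes on the 4 arrays of MII oocytes and 1-cell embryos and far above it on the other 12. Early 2-cell over 1-cell was 11.51 ± 0.40 log2 (limma, adjusted p = 9.95e-09), at least 956-fold against the level of silent genes. The row that Tdpoz2 shares with Gm5773 differed by 11.45 ± 0.32 (adjusted p = 2.1e-09), at least 1087-fold. That row read 2.98, 3.82, 15.39, 14.26, 14.16, 15.07, 14.80 and 9.56 in superovulated samples, and 2.94, 3.78, 15.11, 13.48, 13.84, 13.86, 14.08 and 9.52 in natural-cycle samples. In superovulated samples the Tdpoz2 row was highest in the morula and the shared row at the early 2-cell stage, and their widest gap was 2.25 log2, in the superovulated blastocyst.

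Tdpoz3 also rose steeply, and did not stay. Its row read 4.02, 4.53, 15.27, 12.31, 10.20, 9.17, 9.38 and 5.59 in superovulated samples, and 4.34, 4.43, 15.39, 11.09, 10.15, 8.83, 9.47 and 5.62 in natural-cycle samples. The early 2-cell arrays were the highest on both backgrounds, and the change over the 1-cell stage was 10.85 ± 0.33 (adjusted p = 4.15e-09), at least 1146-fold. Tdpoz4 read 12.33 in superovulated and 12.90 in natural-cycle early 2-cell embryos, a rise of 7.95 ± 0.34 (adjusted p = 4.46e-08) and at least 175-fold. Tdpoz1 had the lowest bound of the members, with 9.74 in superovulated and 10.64 in natural-cycle early 2-cell embryos (5.46 ± 0.43, adjusted p = 4.52e-06, at least 32.6-fold). Bounds of this kind compare the bright arrays with the level of silent genes, because the dim arrays measured no level for these genes, so the fitted differences of such rows have no order among themselves.

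Among the Usp17l rows the fitted differences lay between 6.65 and 8.49 log2. Usp17lb read 4.61, 4.94, 13.52, 12.20, 8.82, 6.77, 6.41 and 4.83 from MII oocyte to blastocyst in superovulated samples, and 4.66, 5.28, 13.69, 10.88, 7.77, 6.58, 6.26 and 4.70 in natural-cycle samples. Its rise was the highest of the Usp17l rows (8.49 ± 0.37, adjusted p = 5.76e-08, at least 340-fold). Usp17lc read 6.73, 7.07, 15.07, 11.65, 9.53, 8.47, 7.89 and 6.11 in superovulated samples, and 6.09, 6.83, 13.88, 10.26, 9.23, 8.60, 7.37 and 5.38 in natural-cycle samples. It was above the level of silent genes on all 16 arrays, and its rise was 7.53 ± 0.34 (185-fold, adjusted p = 7.1e-08). Usp17ld, Usp17le and Usp17la rose by 7.85 ± 0.36, 7.05 ± 0.45 and 6.65 ± 0.37 (adjusted p = 7e-08, 8.51e-07 and 3.05e-07). Usp17ld read 4.95, 5.32, 13.36, 10.42, 7.25, 6.18, 5.80 and 4.94 in superovulated samples, and 4.59, 5.61, 13.27, 8.93, 7.40, 6.25, 5.57 and 4.94 in natural-cycle samples. Usp17le read 6.68, 6.57, 14.02, 11.10, 8.85, 7.23, 7.22 and 6.13 in superovulated samples, and 5.91, 7.29, 13.94, 10.26, 8.65, 8.48, 7.12 and 5.56 in natural-cycle samples. Usp17la read 5.17, 5.34, 12.28, 9.12, 7.10, 5.42, 5.60 and 4.4 in superovulated samples, and 4.80, 5.36, 11.74, 8.17, 6.77, 6.55, 5.38 and 4.30 in natural-cycle samples. In these 3 rows the early 2-cell stage was the highest on both backgrounds, at 11.74 to 14.02.

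**Figure D2:**
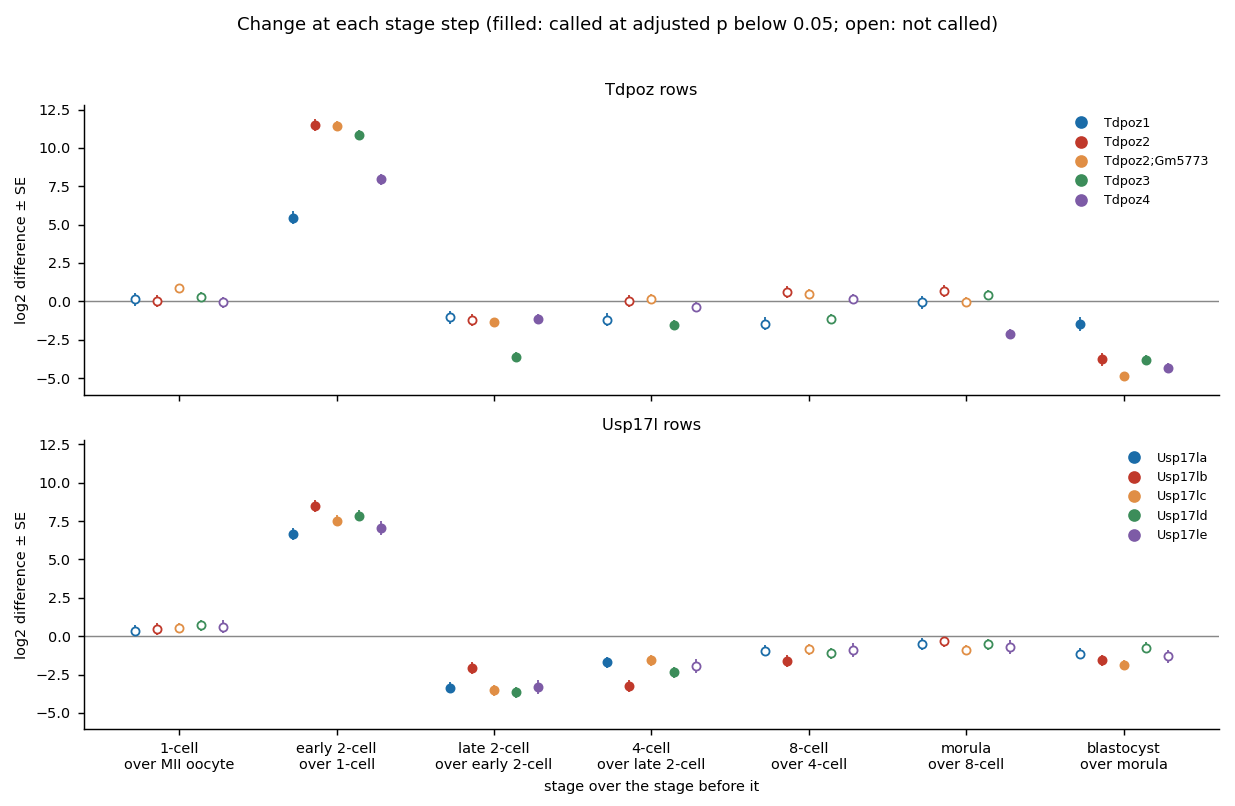
Log2 difference (y axis, ± standard error of the limma fit) of each stage over the one before it (x axis), for the 5 Tdpoz rows (top) and the 5 Usp17l rows (bottom); filled points were called at an adjusted p below 0.05. All 10 points at the early 2-cell step lie between 5.46 and 11.51, and at the 4-cell over the late 2-cell stage the Usp17l rows lie between -3.25 and -1.57 and the 2 Tdpoz2 rows at 0.05 and 0.13.

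After the early 2-cell stage the Usp17l rows fell steeply. All 5 were among the 8 member rows called lower at the late 2-cell stage, where 8.48% of all rows were called lower. The log2 changes were -3.64 ± 0.36 for Usp17ld (adjusted p = 0.000112), -3.52 ± 0.34 for Usp17lc (adjusted p = 0.000111), -3.36 ± 0.37 for Usp17la (adjusted p = 0.000197), -3.30 ± 0.45 for Usp17le (adjusted p = 0.000556) and -2.06 ± 0.37 for Usp17lb (adjusted p = 0.00268). These 5 calls held with each array left out in turn. In superovulated samples 9.32% to 40.1% of the early 2-cell signal was left at the late 2-cell stage, and in natural-cycle samples 4.91% to 14.3%. Usp17lb kept the highest share on both backgrounds.

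The Tdpoz rows parted at this step. Tdpoz3 fell by 3.63 ± 0.33 (adjusted p = 8.17e-05), which left 12.9% of its early 2-cell signal in superovulated and 5.1% in natural-cycle late 2-cell embryos. The Tdpoz2 and Gm5773 row fell by 1.38 ± 0.32 (adjusted p = 0.0111) and Tdpoz4 by 1.17 ± 0.34 (adjusted p = 0.0311). Leaving out the early 2-cell array of superovulated samples ended both calls (adjusted p = 0.0552 and 0.0608), as did leaving out the early 2-cell (0.0741 and 0.217) or late 2-cell array (0.113 and 0.159) of natural-cycle samples. That of Tdpoz4 was also lost without the superovulated late 2-cell array (adjusted p = 0.082), with all rows tested (0.0678) and in plain analysis of variance (0.0658). The other 2 rows missed the threshold, Tdpoz2 with a log2 change of -1.21 ± 0.40 (adjusted p = 0.0552) and Tdpoz1 with -1.03 ± 0.43 (adjusted p = 0.133). Tdpoz2 passed in 5 of 10 other settings, with adjusted p between 0.00808 and 0.0456.

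From the late 2-cell to the 4-cell stage 5 member rows were called lower, Usp17lb, Usp17ld, Usp17la, Usp17lc and Tdpoz3, where 1.11% of all rows were. The log2 change of Usp17lb was -3.25 ± 0.37 (adjusted p = 0.0059) and that of Usp17ld -2.35 ± 0.36 (adjusted p = 0.0126). The other 3 fell by 1.53 to 1.71 with adjusted p of 0.0413 to 0.0416, and Usp17le had -1.93 ± 0.45 (adjusted p = 0.0531) and passed in 6 of 10 other settings (adjusted p of 0.00423 to 0.0484). The count of 5 was fragile. Without the 4-cell array of natural-cycle samples it was 0, without that of superovulated samples 1, and without most of the other arrays 2 or 3, and Tdpoz3 lost its call in 15 of 16 such fits (adjusted p of 0.0505 to 0.217).

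Set against the early 2-cell stage directly, all 10 rows were lower at the 4-cell stage, where 14% of all rows were called lower. The 5 Usp17l rows and Tdpoz3 fell by 5.07 to 5.99 log2, with adjusted p of at most 1.19e-05. The share of early 2-cell signal left in 4-cell embryos was 1.45% to 3.86% for the Usp17l rows in superovulated and 1.66% to 3.98% in natural-cycle samples, and that of Tdpoz3 was 2.98% and 2.66%. The other Tdpoz rows fell less. Tdpoz1 fell by 2.23 ± 0.43 (adjusted p = 0.00197), Tdpoz4 by 1.53 ± 0.34 (adjusted p = 0.00461), the Tdpoz2 and Gm5773 row by 1.25 ± 0.32 (adjusted p = 0.0114) and Tdpoz2 by 1.16 ± 0.40 (adjusted p = 0.0466). The call of Tdpoz2 was lost in 3 of 10 other settings (adjusted p of 0.0892 to 0.092). Left-out arrays ended it in 9 of 16 fits, with the highest adjusted p, 0.352, without the natural-cycle early 2-cell array. They ended that of the Tdpoz2 and Gm5773 row in 3 fits (0.0549 to 0.0777) and that of Tdpoz4 in 2 (0.0543 and 0.0729), and the count of 10 was 7 without the natural-cycle early 2-cell or the natural-cycle 4-cell array.

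**Figure D3:**
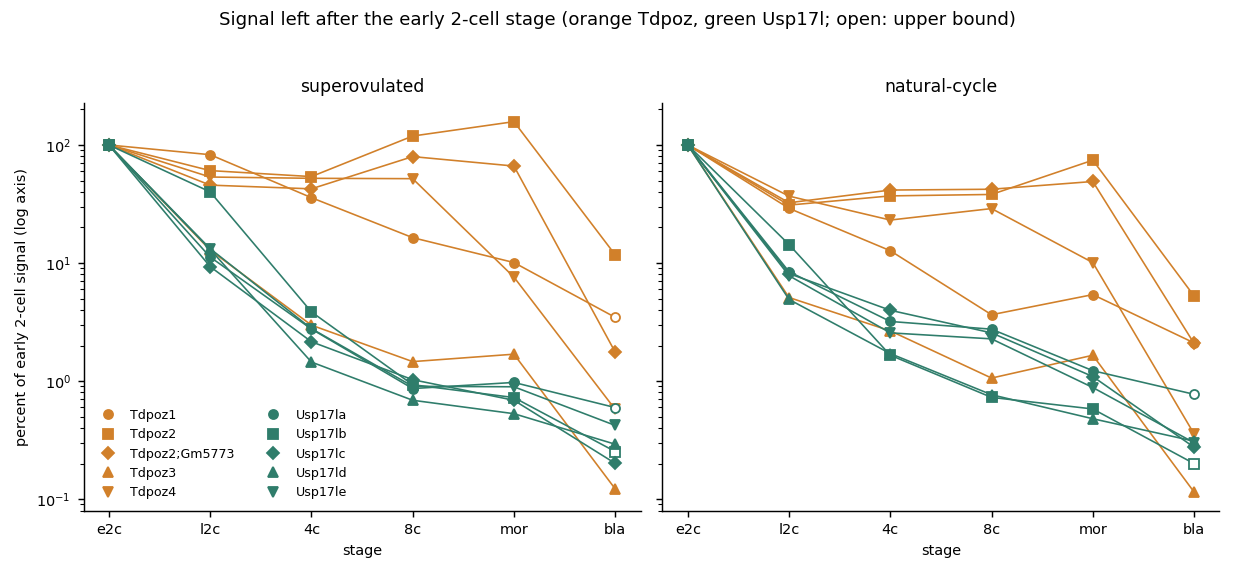
Percent of the early 2-cell signal of each row (y axis, log scale) left at the later stages (x axis), with superovulated samples on the left and natural-cycle samples on the right; open points are upper bounds against the level of silent genes. At the 4-cell stage the Usp17l rows and Tdpoz3 lie between 1.45% and 3.98%, and the other Tdpoz rows between 12.7% and 54%.

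Tdpoz2 was held through cleavage. Its row kept 60.7%, 54%, 119% and 158% of the early 2-cell signal at the late 2-cell, 4-cell, 8-cell and morula stages in superovulated samples, and 31%, 37%, 38.1% and 74.3% in natural-cycle samples. The superovulated morula was its highest array, while on the natural-cycle background the early 2-cell embryo was. After cyclic loess scaling the highest share of any Tdpoz row was 67.9% in superovulated 8-cell embryos, 108.3% in the superovulated morula and 45.4% in the natural-cycle morula. None of the 3 steps between the late 2-cell stage and the morula was called (0.05 ± 0.40, 0.59 ± 0.40 and 0.68 ± 0.40 log2, adjusted p = 0.978, 0.479 and 0.538). Its row shared with Gm5773 kept 42.5% and 41.5% at the 4-cell stage and 66.3% and 49% in morulae, in superovulated and in natural-cycle samples.

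Tdpoz4 was held as far as the 8-cell stage. It read 11.43, 11.39, 11.38, 8.61 and 4.73 from late 2-cell to blastocyst in superovulated samples, and 11.46, 10.79, 11.11, 9.59 and 4.77 in natural-cycle samples. It was the only member called at the morula stage over the 8-cell stage (-2.15 ± 0.34, adjusted p = 0.012), where 1.13% of all rows were called lower. The call was lost without the superovulated 8-cell array (adjusted p = 0.125) and without the natural-cycle 8-cell array (adjusted p = 0.0504). The morula arrays differed in the markers of the outer lineage, with a summed linear signal of 5 trophectoderm genes of 1336 in the superovulated and 15360 in the natural-cycle morula, against 116500 and 229000 in the blastocysts. The part of this difference in the Tdpoz4 values was not tested.

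Tdpoz1 declined more evenly. It read 9.74, 9.47, 8.26, 7.13, 6.43 and 4.85 from early 2-cell to blastocyst in superovulated samples, and 10.64, 8.86, 7.67, 5.87, 6.43 and 5.07 in natural-cycle samples. None of its steps between the late 2-cell stage and the morula was called. At the 8-cell stage over the 4-cell stage only Usp17lb was called among the members (-1.62 ± 0.37, adjusted p = 0.0259), where 4.18% of all rows were called lower. That call was lost without any 1 of the 4-cell and 8-cell arrays (adjusted p of 0.0521 to 0.209), and 6 member rows had an unadjusted p below 0.05 at this step.

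All 5 Tdpoz member rows, with Usp17lb and Usp17lc, were called lower over the morula, where 5.58% of all rows were. Tdpoz2 read 11.81 in the superovulated and 10.97 in the natural-cycle blastocyst, against 15.56 and 14.79 in the morulae (-3.79 ± 0.40, adjusted p = 0.000164). The Tdpoz2 and Gm5773 row fell by 4.90 ± 0.32 (adjusted p = 1.61e-05), Tdpoz4 by 4.35 ± 0.34 (adjusted p = 3.94e-05), at least 19.3-fold, and Tdpoz3 by 3.82 ± 0.33 (adjusted p = 6.65e-05). Tdpoz1, Usp17lb and Usp17lc fell by 1.47, 1.57 and 1.88 (adjusted p = 0.0478, 0.0174 and 0.00408). The call of Tdpoz1 was lost in 10 of 16 fits with 1 array left out (adjusted p of 0.0525 to 0.181) and that of Usp17lb in 4, those without any 1 of the morula or blastocyst arrays (adjusted p of 0.0801 to 0.0879). Of the 5 relatives' rows 3 were called lower, and the 2 Tdpoz9 rows had -1.07 ± 0.47 and -1.62 ± 0.56 (adjusted p = 0.183 and 0.0887). Calls also ended in other settings, that of Tdpoz1 in 4 of 10 and that of Usp17lb in 2. Trophectoderm marker signal rose at the same step, as given above, and its part in these falls was not tested.

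Over the whole course all 10 rows were lower in blastocysts than at the early 2-cell stage, where 19.6% of all rows were called lower, by 3.67 ± 0.40 (Tdpoz2) to 9.72 ± 0.33 log2 (Tdpoz3). This count held with each array left out in turn. Against MII oocytes 3 rows were higher in blastocysts, Tdpoz2, the Tdpoz2 and Gm5773 row and Tdpoz3, where 24.6% of all rows were called higher. Tdpoz2 was at least 76.1-fold higher (7.86 ± 0.40, adjusted p = 3.04e-08) and the row shared with Gm5773 at least 21.1-fold (6.58 ± 0.32, adjusted p = 2.52e-08). Tdpoz3 was at least 1.38-fold higher (1.42 ± 0.33, adjusted p = 0.00392). Its call was lost without the superovulated MII oocyte array (adjusted p = 0.0544), and its difference was -0.01 (adjusted p = 0.985) where arrays were centred on housekeeping genes. In that setting the other 7 rows were called lower in blastocysts than in MII oocytes (0 in the deposited scaling, where 19.7% of all rows were called lower and 3 member rows had an unadjusted p below 0.05 in either direction), and the median of all rows was shifted by -1.41 log2.

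The rows of a family differed in how alike their courses were, as a description over 16 arrays that share their stages. Pearson correlations between Usp17l rows ran from 0.97 to 1.00 over 10 pairs. Those between Tdpoz rows ran from 0.71 (Tdpoz1 with Tdpoz2) to 0.99 (Tdpoz2 with the row shared with Gm5773), also over 10 pairs. Between the families they ran from 0.47 (Tdpoz2 with Usp17la) to 0.97 (Tdpoz1 with Usp17lb) over 25 pairs, so that Tdpoz1 and Tdpoz3 ran closer to the Usp17l rows than Tdpoz2 did.

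At the 4-cell stage every row of the relatives kept at least 7.93% of its early 2-cell signal, more than any Usp17l row or Tdpoz3. The rows of Tdpoz7 and Tdpoz5 rose by 9.74 ± 0.33 at the early 2-cell stage (adjusted p = 9.37e-09), at least 477-fold. They kept 56.8% of the early 2-cell signal in superovulated and 52.4% in natural-cycle 4-cell embryos, and were not called at the 4-cell stage over the early 2-cell stage (-0.87 ± 0.33, adjusted p = 0.0709). Tdpoz8 rose by 7.24 ± 0.32 (adjusted p = 6.25e-08), at least 118-fold, and was lower at the 4-cell stage (-2.93 ± 0.32, adjusted p = 4.8e-05). Tdpoz9, whose promoter stretch is that of Tdpoz1, kept 27.3% of its early 2-cell signal by its first row in superovulated and 8.33% in natural-cycle 4-cell embryos, beside 35.8% and 12.7% for Tdpoz1. All 5 rows were lower in blastocysts than at the early 2-cell stage, by 6.02 to 6.36 log2.

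Superovulation changed none of the 10 rows past the threshold. Over 8 superovulated and 8 natural-cycle arrays, compared within stage, 0.369% of all rows were called in either direction (121 rows). The 10 differences ran from -0.14 to 0.61 log2, their 95% intervals reached from -0.51 to 0.98, and 2 had an unadjusted p below 0.05. The highest was Usp17lc, with means of 9.06 in superovulated and 8.45 in natural-cycle samples (0.61 ± 0.17, interval 0.23 to 0.98, adjusted p = 0.123), higher in superovulated samples at 7 of 8 stages. The next was the Tdpoz2 and Gm5773 row, higher at 8 of 8 stages (0.43 ± 0.16, adjusted p = 0.217). In MII oocytes and 1-cell embryos that row was below the level of silent genes, and in blastocysts the difference was 0.04. The row of Tdpoz2 alone, also below that level at the first 2 stages, was higher at 6 of 8. With arrays centred on housekeeping genes Usp17lc was called (0.81, adjusted p = 0.00843), and in that setting 4.8% of all rows were called and the median of all rows was shifted by 0.23 log2.

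By the median difference over the 10 rows, the backgrounds were furthest apart at the late 2-cell stage. The median of the 5 Tdpoz rows alone was 0.65 log2 there and 1.21 at the 8-cell stage. Usp17ld read 10.42 in superovulated and 8.93 in natural-cycle late 2-cell embryos, Usp17lc 11.65 and 10.26, Usp17lb 12.20 and 10.88, and Tdpoz3 12.31 and 11.09. Of the 10 rows 9 were higher in the superovulated sample, all but Tdpoz4, and the differences ran from -0.04 to 1.5 with a median of 0.90 log2. All tested rows had a median difference of 0.04 at this stage, and 55.3% of them were higher in the superovulated sample. Other rows that fell from early to late 2-cell leaned the same way, 83.3% of 2775 rows with a median of 0.38, while rows that rose leaned the other way (36.2% of 3417 rows higher, median -0.12). With 1 array on each side there is no test at a single stage, and the part of this lean over all rows in the members' differences was not tested.

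**Figure D4:**
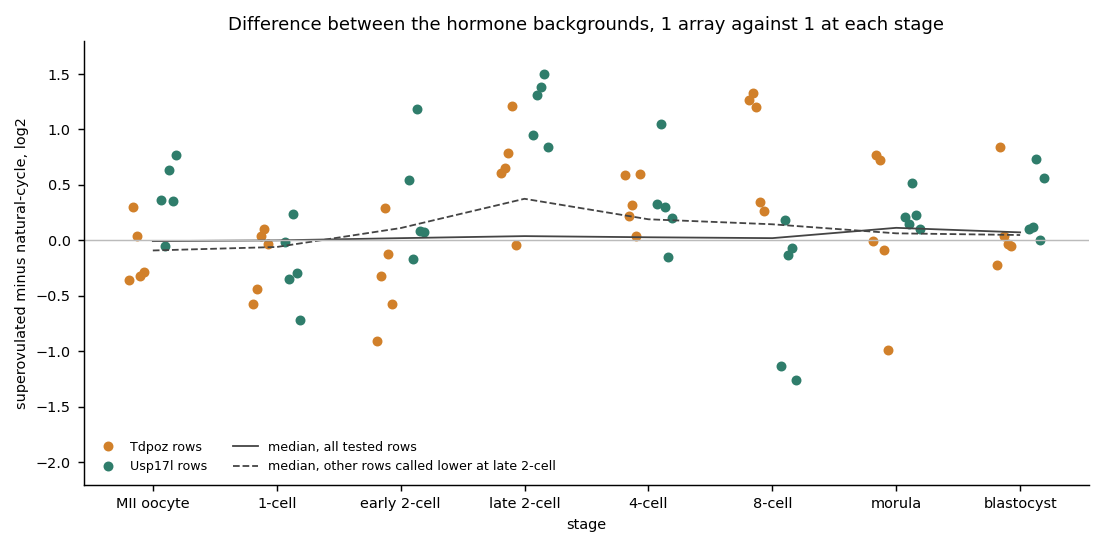
Superovulated minus natural-cycle log2 signal (y axis) of each member row at the 8 stages (x axis), 1 array against 1, with Tdpoz rows in orange and Usp17l rows in green. Lines are medians over all tested rows (solid) and over the other rows called lower at the late 2-cell over the early 2-cell stage (dashed); at the late 2-cell stage the member rows lie between -0.04 and 1.5 and these medians at 0.04 and 0.38.

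At the 4-cell stage 9 of 10 rows were again higher in the superovulated sample (5 of 5 Tdpoz rows, median 0.32, and 4 of 5 Usp17l rows, median 0.30). Of all tested rows 54.2% were higher there, and of the other rows that fell from early to late 2-cell 69.0% were. In 8-cell embryos all 5 Tdpoz rows were higher in the superovulated sample, by 0.27 to 1.32 log2, and 1 of 5 Usp17l rows was, with a range of -1.26 to 0.19. The shares at the 8-cell stage were 53.1% of all tested rows and 66.5% of the other falling rows. With 1 array against 1, whether the families part there was not tested. In early 2-cell embryos Tdpoz1 read 9.74 in the superovulated and 10.64 in the natural-cycle sample, and Usp17lc read 15.07 and 13.88. A separate fit asked whether the superovulation difference at the early and late 2-cell stages differs from that at the other 6 stages. It called 0 of the 10 member rows and 0% of all rows (limma, 2178 rows and 1 member row, Usp17lc, with an unadjusted p below 0.05), and among the other scalings centring on housekeeping genes called 53 rows and cyclic loess 1, no member among them. Usp17lc had the highest value (0.90 ± 0.30, adjusted p = 0.661), and the intervals of the 10 rows reached from -1.40 to 1.66 log2.

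Other genes of the 2-cell wave rose with the members. Of 34 listed genes known from this stage 22 were measured by a single-symbol row. At the early 2-cell stage 21 of them rose (median 5.39 log2), where 11.8% of all rows were called higher. Arg2, which encodes an arginase, was lower (-3.94 ± 0.30, adjusted p = 3.03e-06). At the late 2-cell stage 18 of the 22 were lower, where 8.48% of all rows were called lower. In blastocysts 21 were lower than at the early 2-cell stage, where 19.6% of all rows were. Zscan4d, a zinc-finger gene linked to telomere maintenance in mouse embryonic stem cells, rose by 4.87 ± 0.48 (adjusted p = 2.22e-05) and fell by 3.86 ± 0.48 at the late 2-cell stage (adjusted p = 0.000327). Zfp352, another zinc-finger gene, rose by 7.24 ± 0.34 (adjusted p = 8.05e-08) and fell by 3.84 ± 0.34 (adjusted p = 7.2e-05). The median rise of the 10 member rows, 7.90, stands beside the 5.39 of this list and the 0.00 of all rows.

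The genes listed for SPOP and its ligase, and the other ubiquitin-specific proteases, were called in both directions, as were all rows. Whether Tdpoz proteins share the partners of SPOP was not tested. Of 15 genes listed for SPOP and the cullin-3 ligase 13 were measured, and at the early 2-cell stage 2 rose and 1 fell. Over all rows 11.8% were called higher and 9.83% lower at that stage. Cul3, the scaffold of the ligase, read 8.58 and 9.86 in superovulated and natural-cycle 1-cell embryos, 10.70 and 11.34 at the early 2-cell and 12.50 and 12.28 at the late 2-cell stage, its highest level on both backgrounds. It rose by 1.8 ± 0.36 at the early 2-cell stage (adjusted p = 0.00342) and by 1.37 ± 0.36 at the late 2-cell stage (adjusted p = 0.0193). Nedd8, whose product activates cullins, rose by 1.91 ± 0.42 (adjusted p = 0.00609), and Rhobtb1, a BTB-domain protein, fell by 1.12 ± 0.17 (adjusted p = 0.000466). Spop, the single-copy relative of Tdpoz, was above the level of silent genes on every array and was not called at that stage (0.92 ± 0.40, adjusted p = 0.142), nor was Spopl (-0.34 ± 0.21, adjusted p = 0.323). Of 45 other ubiquitin-specific protease genes 10 rose and 9 fell at the early 2-cell stage, with a median of 0.20 log2, where 11.8% of all rows were called higher and 9.83% lower.

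Genes with a course like that of the families were looked for over 30626 single-symbol rows of other genes, by Pearson correlation over 16 arrays with the mean course of the single-symbol rows. Nearest to the 4 Tdpoz rows were Gm8016 (0.99), Gm7969, Gm12626, Gm12623 and Eif4a3l1. Nearest to the 5 Usp17l rows were Gm5039 (0.99), B020031M17Rik, Spdye4b, Gm6189 and Vmn2r94. Gm8016 read 15.94 and 15.94 in superovulated and natural-cycle early 2-cell embryos and 13.91 and 13.07 in morulae, so that it too stayed high. Gm5039 read 14.20 and 14.67 in early 2-cell embryos and 6.36 and 6.86 in morulae. Vmn2r94 read 7.17 and 6.82 in early 2-cell embryos and is itself 1 of the receptor rows behind the level of silent genes. Gm5039 and B020031M17Rik are also on the list of 2-cell genes.

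Neighbours of the clusters were taken from the gene order of RefSeq. On chromosome 3 the Tdpoz genes follow each other as Tdpoz8, Tdpoz2, Tdpoz1, Tdpoz4, Tdpoz3, Tdpoz5, Tdpoz9 and Tdpoz7, with 29 other genes among them, of which 12 had a row. Of these 5 were called higher at the early 2-cell stage, Gm5852 (6.12 ± 0.27, adjusted p = 5.17e-08), Gm9116 (6.06 ± 0.26, adjusted p = 4.46e-08), Rplp0-ps1 (3.35 ± 0.29), Gm5278 (1.68 ± 0.20) and Tchh (0.64 ± 0.18). The highest of these adjusted p was 0.026, and the median of the 12 was 0.09 log2, against 7.90 for the member rows of both families. The 3 rows of pseudogenes named Gm were all called higher, with a median of 6.06 log2. Of the other 9 rows 2 were called higher, and their median was 0.03. On chromosome 7 Usp17ld, Usp17lc, Usp17le, Usp17lb and Usp17la lie among 112 other genes, 74 of them olfactory receptors. Of the 95 neighbours with a row 4 were called higher (Olfr596, Olfr603, Olfr624 and Gm25405, by 0.95 to 2.64) and 6 lower, with a median of -0.10. Over all rows 11.8% were called higher and 9.83% lower at this step.

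The labels were checked against marker genes on all arrays. In MII oocytes of both backgrounds 8 of 8 oocyte markers were above the level of silent genes. All 8 were lower in blastocysts than in MII oocytes, where 19.7% of all rows were called lower. Of 5 trophectoderm markers 4 rose at the blastocyst stage over the morula, and of 4 inner cell mass markers 2 rose. Over all 32814 rows 2109 were called higher at that step. Cdx2 read 12.00 in the superovulated and 12.99 in the natural-cycle blastocyst. At most 1 of 7 sperm markers and 2 of 4 blood and lymphoid markers were above the level of silent genes on any array. The lymphoid gene Ms4a1 was far above it in MII oocytes, at 9.77 in the superovulated and 10.07 in the natural-cycle sample. Cumulus and granulosa markers had a summed signal of 5903 in superovulated and 874 in natural-cycle MII oocytes, where 8 and 5 of 12 were above that level. They were higher in the sample in which the member rows Usp17lc and Usp17le were also higher (6.73 and 6.68 in superovulated against 6.09 and 5.91 in natural-cycle MII oocytes), and their part in this was not tested. The sum of these cumulus and granulosa markers was also 5077 in superovulated 4-cell embryos, where Amhr2 read 12.24.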

How the data were processed

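The values are log2 signals deposited by the authors, made with Affymetrix Expression Console per the labels; the study's methods state signal space transformation and robust multiarray averaging only for its other arrays, and the genome build of the array annotation is not given in the sources used here. Column medians lay between 4.39 and 4.69, and values ran from 1.80 to 19.66. They were used without rescaling. Of 72688 rows, 30638 carried 1 gene symbol, 2176 several, 39688 none and 186 were controls; the 32814 rows with a symbol were tested. A linear model per row, with additive terms for stage and for stimulation, was fitted with limma 3.58.1 under R 4.3.3 and moderated with a mean-variance trend (7 residual and 4.40 prior degrees of freedom; 6 residual with the interaction), and rows were called at a Benjamini-Hochberg adjusted p below 0.05 over the 32814 rows, whatever the fold. A transition rests on 4 arrays, and the number of arrays limits the precision. The fit was tested on simulated data with known changes. All 9 members and their relatives were named, with Spop, Spopl, Cul3, at most 4 genes of a list, and the 5 genes nearest in course to each family; the neighbouring genes were named after their values were seen. Members and lists were chosen with earlier results of these data known. Promoter windows and gene order came from RefSeq (GRCm38.p6), and promoters of Tdpoz2, Tdpoz3 and Usp17le were not analysed here. Alternatives were 3 scalings, 3 row sets, moderation without the trend, plain analysis of variance, array weights, a fit without the stimulation term, and leaving out each array.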

Additional observations from a re-analysis of the deposited data

Results flagged for a closer look

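Tdpoz1 moved in opposite directions on the 2 backgrounds at the morula stage over the 8-cell stage. It changed by -0.70 log2 in superovulated samples (6.43 in the morula, against 7.13 at the 8-cell stage) and by 0.57 log2 in natural-cycle samples (6.43 in the morula, against 5.87 at the 8-cell stage). The morula values were alike and the 8-cell values differed. With 1 array on each side the difference was not tested.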

How the results depend on the processing

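The count of 10 rows higher at the early 2-cell stage over the 1-cell stage and over MII oocytes, and of 10 lower in blastocysts over the early 2-cell stage, was the same in all 10 other settings and with each of 16 arrays left out. Other counts moved. For the 4-cell stage over the late 2-cell stage, 5 rows lower became 2 with all rows, 1 in plain analysis of variance and 2 without the stimulation term, while Usp17le passed in 6 settings, and 0 to 5 with an array left out. For the 8-cell over the 4-cell stage, 1 became 2 with cyclic loess, 3 centred on brighter rows, 4 centred on housekeeping genes, 0 with all rows, 4 with rows above the median level, 2 without the trend, 0 in plain analysis of variance and 4 with array weights, and 0 to 3 with an array left out. For the morula over the 8-cell stage, 1 became 0 in plain analysis of variance and 0 to 1 with an array left out. For blastocysts over MII oocytes, 0 lower became 1 with cyclic loess, 1 centred on brighter rows and 7 centred on housekeeping genes, and 0 with any array left out. For superovulation, 0 higher became 1 centred on housekeeping genes. Left-out arrays gave 6 to 9 rows lower for the late over the early 2-cell stage (main count 8), 5 to 9 for the blastocyst over the morula (7), 7 to 10 for the 4-cell over the early 2-cell stage (10), and 2 to 3 higher for blastocysts over MII oocytes (3). Other settings ended calls of Tdpoz1 (4 settings) and Usp17lb (2) for the blastocyst over the morula, of Tdpoz2 (3) for the 4-cell over the early 2-cell stage and of Tdpoz4 (2) for the late over the early 2-cell stage, and made calls of Usp17la and Usp17le (3 each) for the blastocyst over the morula. Values close to 0 changed sign. Tdpoz2 at the 1-cell stage over MII oocytes (0.02) became -0.069 with cyclic loess and -0.23 centred on housekeeping genes, and -0.47 to 0.51 with an array left out; Tdpoz2 at the 4-cell over the late 2-cell stage (0.05) became -0.055 with cyclic loess and -0.088 to 0.18. The Tdpoz2 and Gm5773 row at that step (0.13) ran from -0.075 to 0.33; at the morula over the 8-cell stage (-0.02) it became 0.081 with cyclic loess and -0.47 to 0.42; its stage-specific superovulation difference (0.14) became -0.12 centred on housekeeping genes and -0.11 to 0.39, and that of Tdpoz2 (-0.34) ran from -0.82 to 0.15. Tdpoz3 in blastocysts over MII oocytes became -0.0075 centred on housekeeping genes. The cause of these changes was not tested. Over all rows the split of 3886 higher and 3224 lower at the early 2-cell stage became 3500 and 4042 with cyclic loess and 2895 and 4420 centred on brighter rows. No paired analysis was possible because each group holds 1 array with no replicate number to pair on, apart from the pairing of the backgrounds by stage that the fit itself makes.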
